A study of Rattus norvegicus with 34 samples.

Results

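The genes examined here encode splicing factors and heterogeneous nuclear ribonucleoproteins (hnRNPs). They are all genes on the array whose symbol begins with Hnrnp, Hnrp, Srsf, Sfrs, Sf3, Snrp or Prpf, apart from Hnrnpd, which the rule leaves out. The rule found 45 of the 13337 genes that carry a symbol, read by 46 probes, and each gene was read from its probe with the highest mean over the 34 arrays. Of these, 43 were among the 6781 genes expressed above background and were tested. The other 2, Prpf31, which holds the U4/U6 and U5 particles together, and Snrpc, a U1 protein, were not expressed by this measure.

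A primary transcript is spliced by the spliceosome, which is built from small nuclear ribonucleoproteins (snRNPs). The U1 and U2 snRNPs mark the ends of an intron, the U4/U6.U5 tri-snRNP joins them, and a ring of Sm proteins forms the core of most of these particles. SR proteins, named for their stretches of serine and arginine, bind exons and recruit the spliceosome, while hnRNPs coat the transcript and often repress the splice sites they cover. In heart muscle, splicing sets which isoforms of sarcomere proteins are made, and in lymphocytes it changes with activation.

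Female Sprague-Dawley rats received a single intraperitoneal injection of doxorubicin (DOX, 12 mg/kg), an anthracycline that intercalates into DNA, or of saline, and tissue was taken 48 h later. The age of the rats is not given in the sources used here. The left ventricle and the peripheral blood mononuclear cells (PBMC), separated on a Ficoll gradient from blood drawn by heart puncture, gave 17 arrays each, of which 8 are labelled saline and 9 DOX. Levels are log2 intensities on a scale where 0 is the median of the probes that were not expressed, so a gene near 0 cannot show a further decrease. To be called, a gene needed more than a 2-fold change at a false discovery rate of 0.05 (limma, Benjamini-Hochberg over the 6781 genes), and the errors given are limma's standard errors. The p-values measure the spread between arrays of individual rats.

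The PBMC labels and the published PBMC changes run opposite ways. The grouping on which the published PBMC changes rest sets the arrays labelled saline 1 to 8 and DOX 1 (here the DOX side, 9 arrays) against those labelled DOX 2 to 9 (the control side, 8 arrays). The sources do not say which is right, so counts and the main genes are given by side and by label, and no direction of the DOX effect in PBMC is settled. The deposited values also fall into 2 kinds. The saline hearts and the control side hold 22196 to 22419 distinct values per array, and the DOX hearts and the DOX side hold 2804 to 5746. This property and the effect of DOX cannot be told apart in the heart, nor by side in PBMC.

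The tissue labels were checked by marker genes, each list summarised by its mean level on an array. Cardiac muscle markers (7 of 8 measured) lay at 6.07 to 6.49 on saline hearts, 3.74 to 5.04 on DOX hearts and −0.05 to 0.08 on PBMC arrays. Not all 7 fell on DOX hearts, since the mean of Ryr2 was 1.138 on saline and 1.722 on DOX hearts. T cell markers (5 of 6 measured) lay at 4.86 to 5.36 on the control side and 1.95 to 4.85 on the DOX side. Neutrophil markers (4 of 4 measured) lay at 0.22 to 1.18 on the control side and 1.80 to 3.15 on the DOX side, and at 0.11 to 0.44 on saline and 0.61 to 1.51 on DOX hearts. Not all 4 moved. S100a8, S100a9 and Camp were higher on the DOX side, but the mean of Mpo was 0.182 on the control side and 0.148 on the DOX side. In the heart S100a8 and S100a9 rose, while Camp was at 0.171 on saline and 0.132 on DOX arrays and Mpo at 0.07 and 0.228. The part of these shifts in the results was not tested. Fewer cells of a type and less RNA per cell cannot be told apart in bulk samples. Within the DOX side, saline 6 and DOX 1 stood apart: over the expressed genes they correlated 0.929 with each other, and at a median of 0.709 and 0.615 with the arrays of their side.

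To show what surrounds the start sites, the promoters of 4 genes on which the results turn are printed, from 250 bases before to 50 after the RefSeq start (build GRCr8). Prpf18 and Srsf7 were higher on DOX hearts, Snrpn had the largest decrease in the heart, and Srsf5 the largest decrease on the DOX side of PBMC. The promoter of Prpf18 lies at chr17:78539640-78539939 (+), that of Srsf7 at chr6:20563802-20564101 (+), that of Snrpn at chr1:120338870-120339169 (−) and that of Srsf5 at chr6:106336506-106336805 (+). The starts used for Prpf18, Srsf7 and Srsf5 lie inside the spans of these genes, which begin at 78539004, 20564035 and 106333998, and are thus not the outermost. Capitals mark the ETS motif CCGGAAG and the CCAAT box (CCAAT), each on either strand (CTTCCGG and ATTGG as printed from the other strand).
Prpf18: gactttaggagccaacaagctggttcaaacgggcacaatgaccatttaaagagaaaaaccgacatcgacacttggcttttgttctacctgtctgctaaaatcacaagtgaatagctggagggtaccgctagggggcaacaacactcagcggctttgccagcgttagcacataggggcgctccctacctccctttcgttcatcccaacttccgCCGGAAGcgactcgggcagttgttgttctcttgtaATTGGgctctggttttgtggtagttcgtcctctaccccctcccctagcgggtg
Srsf7: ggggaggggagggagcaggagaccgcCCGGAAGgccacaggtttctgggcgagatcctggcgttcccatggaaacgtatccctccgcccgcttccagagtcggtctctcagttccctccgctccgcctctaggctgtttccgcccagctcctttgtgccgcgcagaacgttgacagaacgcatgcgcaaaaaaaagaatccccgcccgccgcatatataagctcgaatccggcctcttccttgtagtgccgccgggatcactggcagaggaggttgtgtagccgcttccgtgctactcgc
Snrpn: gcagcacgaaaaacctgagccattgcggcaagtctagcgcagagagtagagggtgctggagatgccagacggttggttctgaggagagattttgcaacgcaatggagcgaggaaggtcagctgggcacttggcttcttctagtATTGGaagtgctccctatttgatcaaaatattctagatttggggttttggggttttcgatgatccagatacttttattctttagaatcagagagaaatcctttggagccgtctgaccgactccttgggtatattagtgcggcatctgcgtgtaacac
Srsf5: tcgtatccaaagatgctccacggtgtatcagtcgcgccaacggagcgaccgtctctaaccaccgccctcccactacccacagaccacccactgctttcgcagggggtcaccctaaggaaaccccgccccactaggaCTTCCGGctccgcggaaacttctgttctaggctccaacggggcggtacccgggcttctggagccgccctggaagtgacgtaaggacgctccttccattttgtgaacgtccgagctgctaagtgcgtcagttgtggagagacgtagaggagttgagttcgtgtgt

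Promoters were found for 44 of the 45 genes. Of these, 59.1% held a CCAAT box and 22.7% the ETS motif, against 37.7% and 9.22% of all 27457 promoters of the same length. The GC box GGGCGG was found in 56.8% against 34.9%, the cAMP response element core TGACG in 47.7% against 22.0%, the E box CACGTG in 15.9% against 6.65%, and the TATA box TATAAA in 9.09% against 14.3%, both strands searched in each case. The members' promoters were also richer in G and C, with a median of 59.8% against 52.3%, the part of which in these shares was not tested. The printed promoters do not sort by direction of change, since the ETS motif occurs once in Prpf18, Srsf7 and Srsf5 and not in Snrpn, and the CCAAT box once in Prpf18 and Snrpn only. These are matches of letters and show no binding. For several members, Hnrnpk and Prpf40b among them, the start used also lies inside the span of the gene.

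In the heart, 22 of the 43 splicing genes were lower on the DOX arrays and 2 were higher, and the remaining 19 were not called. Among all genes tested, 48.0% were lower and 1.36% higher, against 51.2% and 4.65% of the members, so the share that was lower is near that of all genes. The median log2 fold change was −1.04 for the members and −0.94 for all genes, with the members between −3.90 and 1.91. On 29 members every DOX array lay below every saline array, and on 3 (Prpf18, Srsf7 and Snrpd1) every DOX array lay above. Such separation was found for 63.3% (lower) and 1.81% (higher) of all genes tested. The array medians over all expressed genes did not overlap either, at 1.31 to 1.78 on saline hearts and 0.221 to 0.70 on DOX hearts. Nor did those of the 43 genes, at 1.79 to 2.38 on saline hearts and 0.344 to 1.30 on DOX hearts. DOX 6 and DOX 7 had the lowest medians (0.344 and 0.528), and on saline arrays 29 to 35 members exceeded a level of 1, on DOX arrays 8 to 27.

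**Figure D1:**
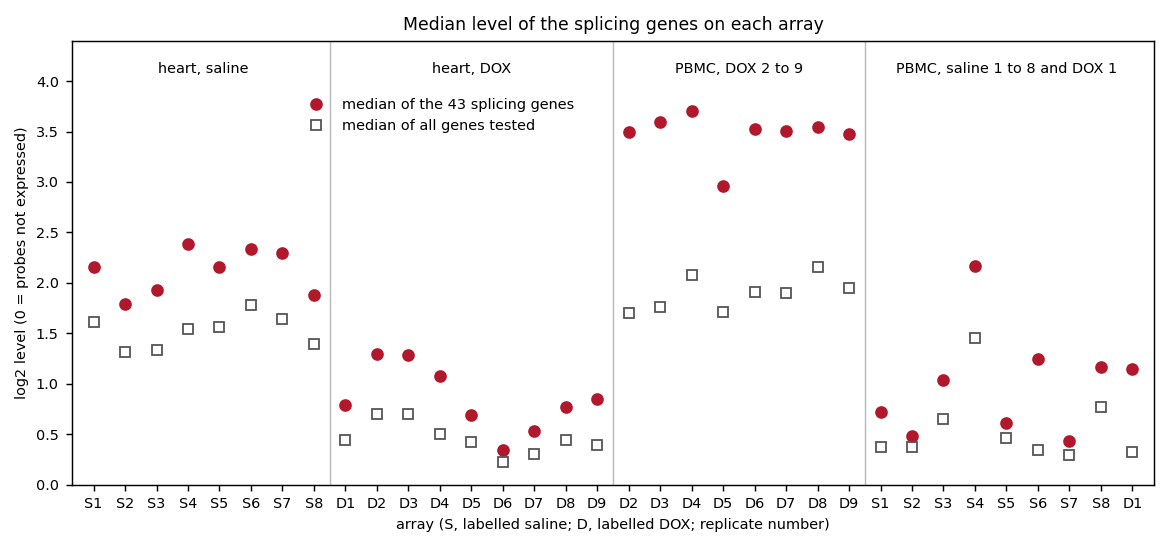
Median log2 level of the 43 splicing genes on each of the 34 arrays (y axis; 0 is the median of the probes not expressed), with the array's median over all expressed genes beside it. The saline hearts (1.79 to 2.38) lie above the DOX hearts (0.344 to 1.30), and the PBMC arrays labelled DOX 2 to 9 (2.96 to 3.70) lie above the other PBMC arrays (0.432 to 2.16). The medians over all expressed genes part in the same way.

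The count in the heart depended on how the arrays were scaled. Quantile normalization was done here within each tissue, so that all hearts take 1 common distribution. It moved the median of all genes from −0.94 to −0.23 and that of the members from −1.04 to −0.19. The number of members with an estimate below 0 went from 36 to 30. Under it 5 members were lower (Snrpn, Hnrnpm, Hnrnpu, Prpf19 and Sf3b1) and 7 higher (Prpf18, Prpf38b, Hnrnpa2b1, Srsf7, Hnrnpa1, Snrpd1 and Srsf10), against 15.5% and 6.61% of all genes. Those 5 and 2 of those 7 (Prpf18 and Srsf7) were thus called in the same direction under both scalings.

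**Figure D2:**
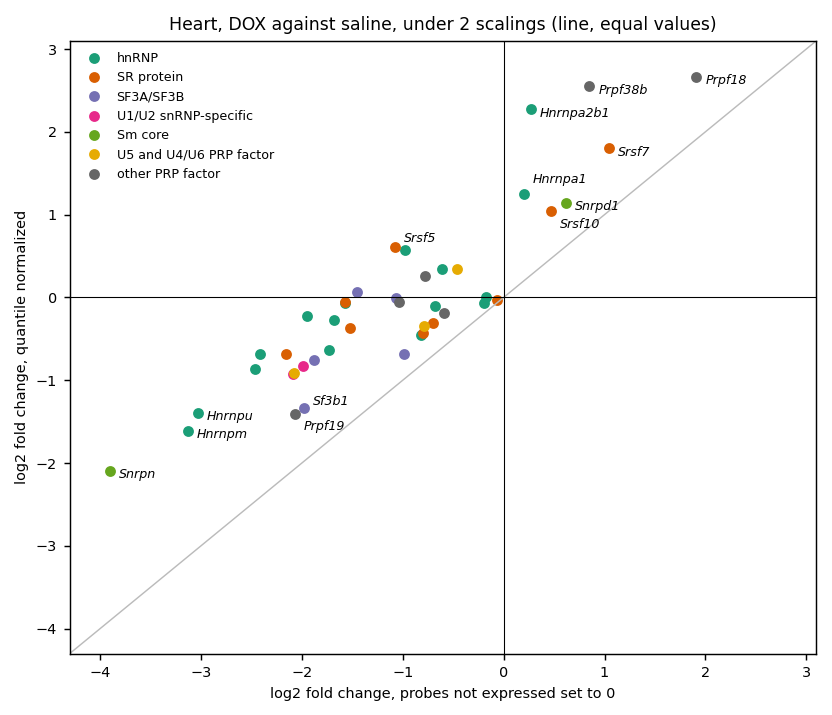
Log2 fold change of each of the 43 splicing genes in the heart, DOX minus saline, with the probes not expressed set to 0 (x axis) and after quantile normalization (y axis), coloured by role; the line marks equal values. All points lie on or above the line, and Srsf5 is at −1.08 on one scale and 0.61 on the other.

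The hnRNPs bind nascent transcripts and take part in splicing, export and stability. In the heart 8 of 16 were lower and none higher, with a median log2 fold change of −1.28 that became −0.16 after quantile normalization. Hnrnpm, an hnRNP that acts on alternative exons, ran from 3.85 through a median of 4.26 to 4.39 on saline arrays and from 0.58 through 1.03 to 1.62 on DOX arrays. Every DOX heart was thus far below the lowest saline heart, a log2 fold change of −3.13 ± 0.137 (8.76-fold lower; limma adjusted p = 1.41e-13). Hnrnpu, the scaffold attachment protein that binds chromatin and RNA, ran from 4.33 (median 4.66) to 4.99 on saline arrays and from 0.77 (median 1.59) to 2.40 on DOX arrays. Its groups did not overlap, and the log2 fold change was −3.03 ± 0.21 (limma adjusted p = 1e-10). Both were also lower after quantile normalization, at −1.61 and −1.39.

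Hnrnpa3, a relative of the A1 and A2/B1 proteins, was at 3.59 to 4.33 (median 4.02) on saline and 0.60 to 1.99 (median 1.53) on DOX hearts. The groups were apart, with a log2 fold change of −2.46 ± 0.174 (limma adjusted p = 1.34e-10) that was not called after quantile normalization (−0.87). Hnrnpf, which binds runs of G, was at 4.14 to 5.28 (median 4.75) on saline and 1.53 to 2.78 (median 2.28) on DOX hearts, again without overlap. Its log2 fold change was −2.41 ± 0.176 (limma adjusted p = 2.1e-10), and −0.68, not called, after quantile normalization. The other 4 called hnRNPs, Hnrnpl (a binder of CA repeats), Hnrnpdl, Hnrnpk (a binder of C-rich RNA) and Hnrnph1, had log2 fold changes of −1.95 to −1.57. Of those not called, Hnrnph3 (−0.98), Hnrnpul1 (−0.82), Hnrnpul2 (−0.68) and Hnrnph2 (−0.61) fell short of the fold threshold, and Hnrnpab and Hnrnpr were near background in saline hearts. Hnrnpul1 and Hnrnpul2 had medians of 0.95 and 1.13 on saline and 0.15 and 0.44 on DOX hearts, which left little room for a larger decrease.

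Hnrnpa1 and Hnrnpa2b1, the most studied repressors of exon inclusion, did not move with the others. Hnrnpa2b1 was at 3.42 to 4.09 (median 3.86) on saline hearts and at 1.67 to 5.26 (median 4.53) on DOX hearts. DOX 6 (1.67), DOX 7 (2.73) and DOX 8 (3.74) were the lowest DOX arrays, and the other 6 lay above every saline array. The log2 fold change was 0.27 ± 0.389 (95% interval −0.55 to 1.08; limma adjusted p = 0.524). Hnrnpa1 was at 0.92 to 1.77 (median 1.40) and 0.14 to 2.36 (median 1.88), with DOX 6 (0.14) and DOX 7 (0.65) again lowest. Its change was 0.20 ± 0.259 (95% interval −0.34 to 0.75; limma adjusted p = 0.469). After quantile normalization both were called higher, at 2.27 for Hnrnpa2b1 and 1.25 for Hnrnpa1. Without DOX 6 and DOX 7, a setting chosen after seeing the data, the changes were 0.81 (limma adjusted p = 0.000219) and 0.54 (limma adjusted p = 0.0027), both under 2-fold.

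Of the 9 SR proteins, 4 were lower in the heart and 1 higher, with a median of −0.80 that moved to −0.05 with quantile normalization. Srsf7, which binds exon elements and couples splicing to export, was the one that rose. It was at 0.17 to 0.42 (median 0.32) on saline and 0.95 to 1.82 (median 1.24) on DOX hearts, so that a gene near background on every saline array was above it on every DOX array. The log2 fold change was 1.04 ± 0.112 (2.05-fold; limma adjusted p = 6.01e-08), and 1.80 after quantile normalization. It sat on the fold threshold, since leaving out DOX 2, DOX 3 or DOX 8 took it under 2-fold (0.98 at the lowest).

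Srsf11, an SR-like protein, was at 2.93 to 3.64 (median 3.3) on saline and 0.75 to 1.76 (median 0.96) on DOX hearts, without overlap. Its log2 fold change was −2.16 ± 0.146 (limma adjusted p = 6.71e-11; −0.68, not called, after quantile normalization), and its other probe also gave −2.16. Srsf5, one of the classical SR proteins, was at 3.35 to 4.21 (median 3.59) on saline and 1.57 to 3.46 (median 2.38) on DOX hearts, and here the groups overlapped. The change of −1.08 ± 0.233 (limma adjusted p = 0.00029) turned to 0.61 after quantile normalization and, without DOX 6, was −0.95 and no longer called. Srsf6 (−1.57) and Srsf2 (−1.52) were the other genes called lower. Srsf3, the smallest SR protein, was at 0.64 to 1.2 (median 1.01) on saline and 0.06 to 0.60 (median 0.17) on DOX hearts. Its groups were apart, and its change of −0.70 ± 0.0919 (limma adjusted p = 8.75e-07) stayed under 2-fold, with the DOX level at background. Srsf9 (−0.80), Srsf10 (0.47) and Srsf12 (−0.07) were not called. Srsf9 had a median of 0.99 on saline and 0.15 on DOX hearts, so it too had little room to fall by 2-fold.

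The SF3A and SF3B subunits belong to the U2 snRNP, and SF3B1 is the protein that clamps the branch point adenosine. In the heart 4 of 5 were lower, and the fifth, Sf3a1, missed the fold threshold at −0.99. Sf3a1 was at 0.79 to 1.34 on saline hearts and at background, −0.17 to 0.12, on DOX hearts, so it had no room for a larger decrease. Sf3b1 was at 1.79 to 2.34 (median 2.01) on saline hearts and at −0.12 to 0.17 (median 0.02) on DOX hearts. All 9 DOX arrays were therefore at background, and the log2 fold change of −1.98 ± 0.074 (limma adjusted p = 2.07e-14; −1.34 after quantile normalization) cannot show what lies beneath it. Sf3b3, a large scaffold subunit, was at 2.49 to 3.22 (median 2.89) and 1.13 to 1.80 (median 1.30), which is apart but well above background. Its change was −1.45 ± 0.115 (limma adjusted p = 6.98e-10) and 0.06 after quantile normalization. Sf3b2 (−1.88) and Sf3a3 (−1.07) completed the set.

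Both snRNP-specific proteins tested were lower in the heart. Snrpa, the A protein of U1, was at 2.20 to 2.99 (median 2.48) on saline and 0.15 to 0.95 (median 0.50) on DOX hearts. Snrpb2, the B″ protein of U2, was at 2.46 to 3.1 (median 2.79) and 0.00 to 0.93 (median 0.76). Neither overlapped between groups, and the log2 fold changes were −1.99 ± 0.117 (limma adjusted p = 9.17e-12) and −2.09 ± 0.124 (limma adjusted p = 1.04e-11), with −0.83 and −0.93, not called, after quantile normalization.

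Among the Sm proteins, Snrpn had the largest decrease of all 43 genes in the heart. Snrpn is an imprinted gene that encodes SmN, which takes the place of SmB in the snRNP core of brain and heart. It was at 5.39 to 6.23 (median 5.72) on saline hearts and at 0.72 to 2.67 (median 2.21) on DOX hearts. The gap between the lowest saline and the highest DOX array was wider than the range of either group. The log2 fold change was −3.90 ± 0.253 (15.0-fold lower; limma adjusted p = 3.81e-11), and −2.09 and still called after quantile normalization. The other, Snrpd1 (SmD1), was at 0.01 to 0.20 on saline and 0.26 to 1.25 on DOX hearts, a change of 0.62 that did not reach 2-fold on this scale and did after quantile normalization (1.14). Genes of these families have close paralogs, SmN and SmB among them, and a probe may pick up both, so which of them a probe reads is uncertain.

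Of the PRP factors of the U5 and U4/U6 particles, 1 of 3 was lower. Prpf4, a U4/U6 protein, was at 2.36 to 3.09 (median 2.71) on saline and 0.27 to 0.91 (median 0.58) on DOX hearts, apart, with a log2 fold change of −2.08 ± 0.11 (limma adjusted p = 1.98e-12; −0.91, not called, after quantile normalization). Prpf8 (−0.79), the protein at the catalytic centre, and Prpf3 (−0.46) stayed under 2-fold. Of the 6 other PRP factors, Prpf19 (−2.07), the ubiquitin ligase of the complex that activates the spliceosome, and Prpf38a (−1.04) were lower. Prpf38a was not called without saline 6 or without DOX 6. Prpf4b (−0.78) and Prpf40b (−0.59) were not called. Prpf8 and Prpf40b both had a median of 0.24 on DOX hearts, near background, which left little room for a larger decrease.

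Prpf18, which in yeast and human acts in the second step of splicing, rose. On the 8 saline hearts it lay between −0.03 and 0.13 (median 0.05), and on the 9 DOX hearts between 0.68 and 2.98 (median 1.97). It was thus at background on every saline array and above it on every DOX array. The log2 fold change was 1.91 ± 0.254 (3.75-fold higher; limma adjusted p = 1.11e-06), and 2.66 after quantile normalization. With the saline level at background, this fold is a lower bound. Prpf38b, a relative of the tri-snRNP maturation factor PRP38, was at 2.31 to 3.02 (median 2.80) on saline and 1.82 to 4.71 (median 3.46) on DOX hearts, with overlap. Its change of 0.85 ± 0.302 (limma adjusted p = 0.0137) was under 2-fold, and it was called at 2.55 after quantile normalization.

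**Figure D3:**
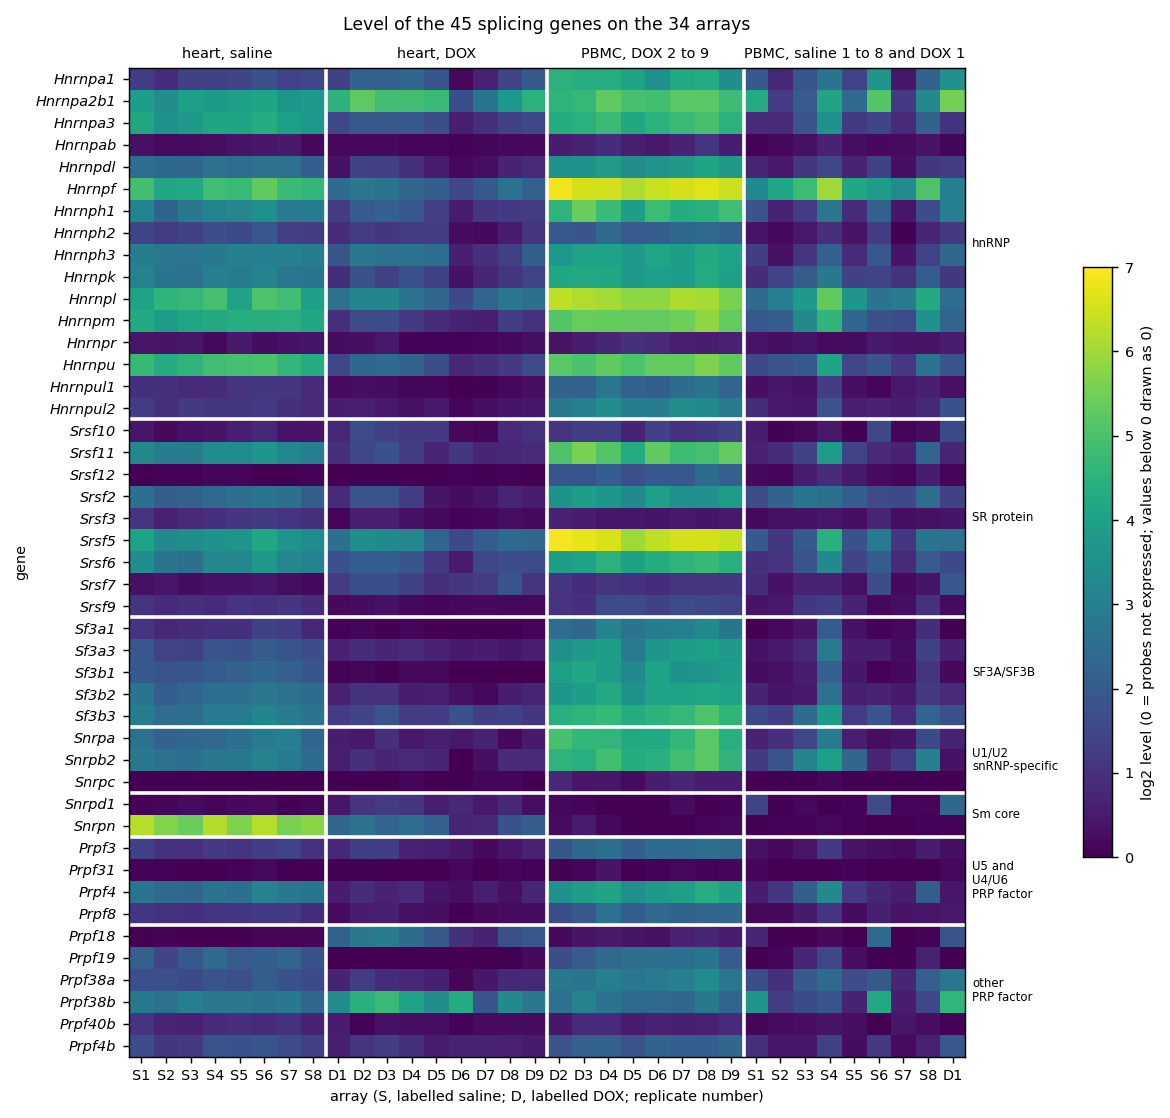
Log2 level (colour; 0 is the median of the probes not expressed) of the 45 splicing genes (rows, grouped by role) on the 34 arrays (columns, S labelled saline and D labelled DOX). Snrpn is high on saline hearts and near 0 on all PBMC arrays, and Prpf18 is near 0 on saline hearts and at 0.68 to 2.98 on DOX hearts.

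In PBMC, 32 of the 43 splicing genes were lower on the DOX side than on the control side, and 11 were not called. None was higher at this threshold, nor at an unadjusted p under 0.05 (limma). Among all genes tested 54.3% were lower and 0.472% higher, against 74.4% and 0 of the members. The median log2 fold change was −2.04 for the members and −1.12 for all genes, a difference that was also there after quantile normalization (−0.67 against −0.10). Under that scaling 12 members were lower and none higher, against 10.0% and 4.84% of all genes. On 29 members every DOX side array lay below every control side array, as for 38.4% of all genes, and on none did they all lie above, as for 0.118%. The members stood higher on the control side to begin with, at array medians of 2.96 to 3.70 against 1.70 to 2.16 over all genes. A dim gene has less room to fall on this scale, and the part of this in the difference was not tested. The call also depends on the null. With p-values ranked among those of genes not expressed, a null of the kind the methods describe, no member and no other gene was called by side or by label. Of the 43 members, 28 by side and 21 by label had an unadjusted p under 0.05 by that measure. Of all 6781 genes, 2864 and 1707 did. The lowest adjusted p of a member by this null was 0.0919 by side and 0.191 by label. The paper did call genes in PBMC with its own form of this adjustment and its own choice of expressed genes, which were not reproduced here.

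By the labels the same arrays gave the opposite sign, since only DOX 1 changes place. The arrays labelled DOX were higher for 32 members and lower for none, nor was any lower at an unadjusted p under 0.05 (limma). Among all genes 44.4% were higher and 0.767% lower. The median was 1.99 for the members and 0.90 for all genes, and 0.56 and 0.06 after quantile normalization, when 11 members were higher and none lower, against 6.84% and 4.91% of all genes. The array medians of the members were 2.96 to 3.70 on the control side and 0.432 to 2.16 on the DOX side, where saline 4 was the highest. Those over all expressed genes were apart as well, at 1.70 to 2.16 on the control side and 0.293 to 1.45 on the DOX side.

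By role, the genes called lower on the DOX side were 14 of 16 hnRNPs (median −2.42), 5 of 9 SR proteins (−1.64), all 5 SF3A and SF3B subunits (−2.81), both snRNP-specific proteins (−3.12), all 3 U5 and U4/U6 factors (−1.90) and 3 of the 6 other PRP factors (−0.78). Neither Sm gene was called. Those not called were Hnrnpab, Hnrnpr, Srsf3, Srsf7, Srsf9, Srsf10, Snrpn, Snrpd1, Prpf18, Prpf38b and Prpf40b. Of the 43 estimates 41 were below 0, and 29 after quantile normalization, which put the medians of the SR proteins and of the other PRP factors above 0 (0.22 and 0.4) and turned, among others, Srsf3 (0.51), Srsf7 (0.85), Prpf38b (1.47) and, of the genes called, Hnrnpa2b1 (0.26), Srsf2 (0.27), Prpf38a (0.76) and Prpf4b (0.16).

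Srsf5 had the largest decrease. It was at 6.01 to 6.90 (median 6.52) on the control side and at 1.12 to 4.43 (median 1.98) on the DOX side. No array of one side reached the other, and the log2 fold change was −4.21 ± 0.358 (18.5-fold lower; limma adjusted p = 2e-08), −2.56 after quantile normalization, and 3.82 ± 0.564 (DOX minus saline; limma adjusted p = 5.96e-05) by the labels. Srsf11 was at 4.30 to 5.6 (median 5.08) and 0.64 to 3.85 (median 0.91), with saline 4 the highest of its side. The change was −3.64 ± 0.375 (limma adjusted p = 1.65e-07; 3.08 by the labels, −1.91 after quantile normalization), while its other probe gave −2.35.

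Snrpa was at 4.25 to 5.21 (median 4.62) on the control side and 0.27 to 2.94 (median 0.71) on the DOX side. Its sides were apart, at −3.56 ± 0.302 (limma adjusted p = 1.98e-08; 3.08 by the labels, −1.90 after quantile normalization). Sf3b1 was at 3.28 to 4.16 (median 3.87) and 0.06 to 2.16 (median 0.31), so that most DOX side arrays were near background. Its change was −3.23 ± 0.245 (limma adjusted p = 5.86e-09; 2.78 by the labels, −1.88 after quantile normalization). The hnRNPs Hnrnpu (−3.21 ± 0.301), Hnrnpa3 (−3.0 ± 0.316), Hnrnpm (−2.79 ± 0.341) and Hnrnpf (−2.33 ± 0.332), the U2 protein genes Sf3b3 (−2.72 ± 0.304) and Snrpb2 (−2.68 ± 0.42), and Prpf4 (−2.56 ± 0.342) also changed without overlap of the sides. By the labels these 7 lay between 1.80 and 2.80. After quantile normalization only Hnrnpu, Hnrnpa3 and Hnrnpm of these 7 were called.

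**Figure D4:**
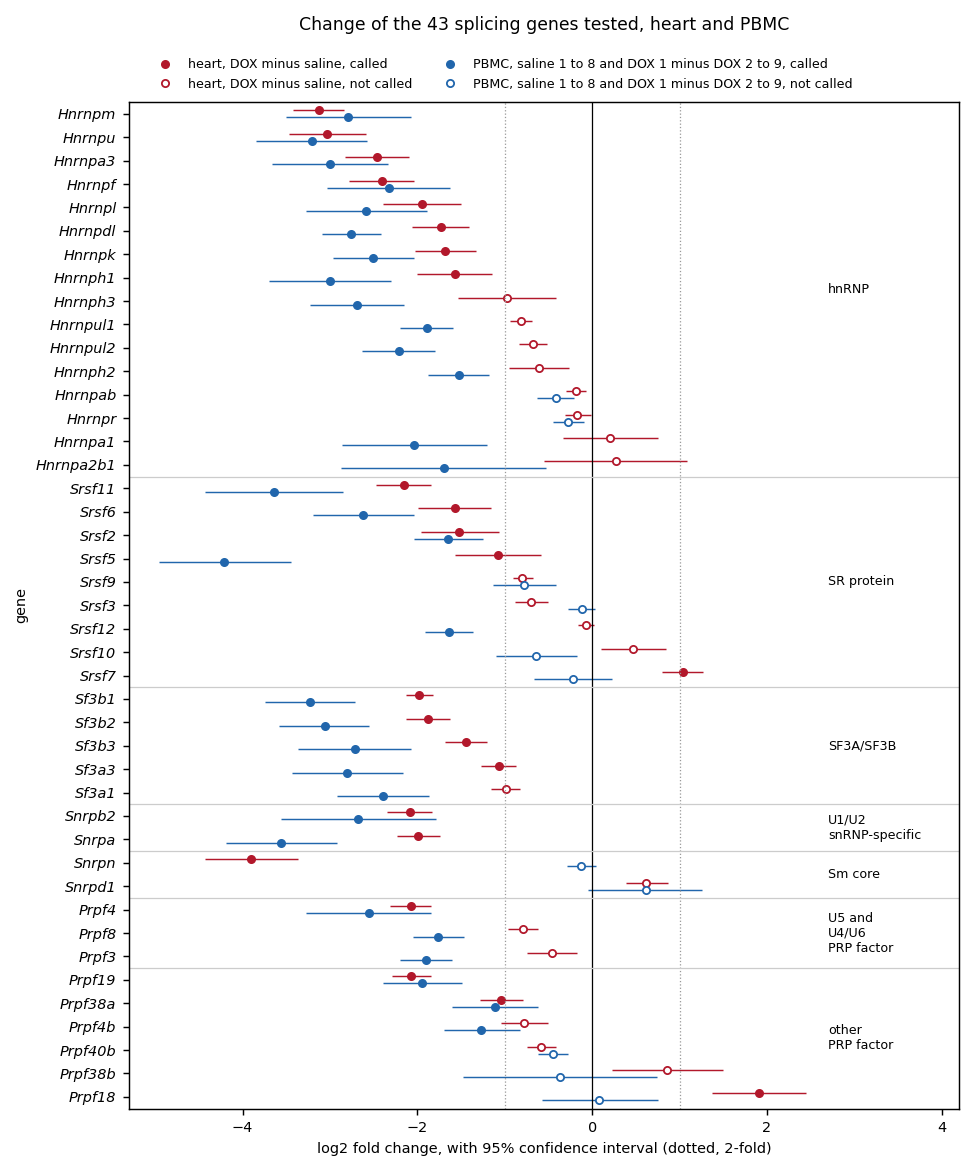
Log2 fold change with its 95% confidence interval for the 43 splicing genes tested, in the heart (DOX minus saline) and in PBMC (DOX side minus control side), grouped by role; filled points were called and dotted lines mark 2-fold. In the heart 22 genes were called lower and 2 higher (5 and 7 after quantile normalization), and in PBMC 32 were called lower (12 after quantile normalization); by the PBMC labels the sign is the opposite.

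Hnrnpa1 and Hnrnpa2b1, not called in the heart, were lower on the DOX side. Hnrnpa1 was at 3.48 to 4.50 (median 4.28) on the control side and 0.45 to 3.62 (median 1.98) on the DOX side, with only saline 6 (3.62) and DOX 1 (3.54) reaching the other side. Hnrnpa2b1 was at 4.54 to 5.29 (median 4.92) and 1.2 to 5.54 (median 3.3), again with DOX 1 (5.54) and saline 6 (5.14) highest. The changes were −2.04 ± 0.392 (limma adjusted p = 0.000141) and −1.70 ± 0.554 (limma adjusted p = 0.00961), by the labels 2.16 and 2.05, and after quantile normalization −0.11 and 0.26, neither called.

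The same pair of arrays, at times with saline 1, was high for several genes. Prpf18 was at 2.38 on saline 6 and 1.78 on DOX 1, against a median of 0.06 on the DOX side and 0.18 to 0.74 on the control side. Its change of 0.08 ± 0.313 (limma adjusted p = 0.813; 0.21 by the labels) turned to −0.35 without these 2 arrays (limma adjusted p = 0.015). Prpf38b was at 4.25 and 4.60 on them and 3.69 on saline 1, against a median of 1.57 on the DOX side and 2.28 to 3.13 on the control side. Its change went from −0.37 (limma adjusted p = 0.531) to −1.0 without the pair (limma adjusted p = 0.0181). Snrpd1 was at 1.63 and 2.37 on the pair and 1.43 on saline 1, while the medians were 0.12 on the DOX side and 0.04 on the control side. Srsf7 was highest on DOX 1 (1.90), and ran from 0.19 (median 0.69) on the DOX side against 0.88 to 1.12 (median 1.05) on the control side, a change of −0.22 ± 0.21 (limma adjusted p = 0.334; 0.46 by the labels) that was −0.51 without the pair (limma adjusted p = 0.000358).

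Snrpn was at −0.10 to 0.14 (median 0.06) on the DOX side and −0.03 to 0.57 (median 0.14) on the control side. No PBMC array stood clear of background except DOX 3 at 0.57, so PBMC cannot show a decrease of this gene (−0.13 ± 0.0775, limma adjusted p = 0.146). Srsf3 was likewise near background, at 0.19 to 0.72 (median 0.32) and 0.39 to 0.70 (median 0.46), with a change of −0.12 (limma adjusted p = 0.133).

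Of the 43 genes, 21 (48.8%) were lower both on DOX hearts and on the DOX side of PBMC, against 33.3% of all genes, and no gene was called in opposite directions. They were 8 hnRNPs, 4 SR proteins, 4 SF3A and SF3B subunits, Snrpa, Snrpb2, Prpf4, Prpf19 and Prpf38a. By the labels the same 21 genes were lower in the heart and higher in PBMC. A further 11 were called in PBMC only, and Snrpn, Prpf18 and Srsf7 in the heart only. The shares of all genes called oppositely in the tissues by the labels, or in 1 tissue only, were not counted. Set against each other across the 43 genes, the heart and PBMC changes gave r = 0.60 (rho = 0.69), against 0.36 (rho = 0.37) over all 6781 genes. This is a description across genes, which share arrays and their scaling and are not independent, and 83.7% of the members and 82.7% of all genes had both estimates below 0.

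The difference between the tissues was tested in one fit of all 34 arrays (limma, adjusted p under 0.05 with no fold threshold). By the sides, the change in PBMC was lower than that in the heart for 24 members and higher for 2, Snrpn and Srsf3, against 37.4% and 23.1% of all genes. By the labels it was higher for 38 and lower for 2, against 87.8% and 3.16%. After quantile normalization of all 34 arrays together, 16 were lower and 8 higher by the sides, against 22.7% and 33.0% of all genes. By the labels 5 were then lower and 25 higher, against 22.2% and 46.5%. By the sides, Srsf5 differed by −3.13 ± 0.436 (limma adjusted p = 2.35e-07), Hnrnpa1 by −2.24 ± 0.48 (limma adjusted p = 0.000169) and Hnrnpa2b1 by −1.97 ± 0.693 (limma adjusted p = 0.0149). The genes that rose in the heart, Prpf18 and Srsf7, differed by −1.82 ± 0.414 (limma adjusted p = 0.000338) and −1.26 ± 0.242 (limma adjusted p = 3.98e-05). Snrpn differed by 3.78 ± 0.276 (limma adjusted p = 1.58e-13) and Srsf3 by 0.58 ± 0.12 (limma adjusted p = 0.000115). Snrpn was at background in PBMC, and Srsf3 at 0.39 to 0.70 on the control side.

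**Figure D5:**
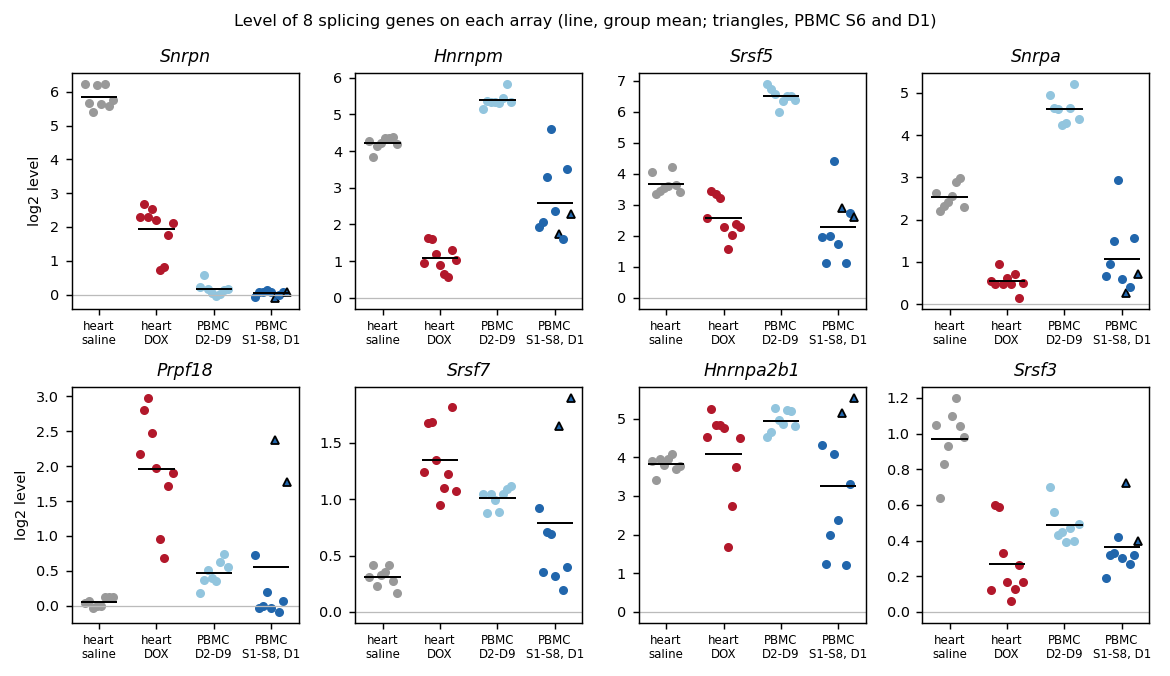
Log2 level of 8 splicing genes on each array, by group (points, arrays; line, group mean; triangles, the PBMC arrays labelled saline 6 and DOX 1). The saline and DOX hearts do not overlap for Snrpn, Prpf18 or Srsf7, and the DOX hearts of Hnrnpa2b1 spread from 1.67 to 5.26.

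The levels without the drug depended on which PBMC arrays are the controls. With the control side, 27 members were higher in PBMC than in saline hearts and 1, Snrpn, was lower, against 29.7% and 16.0% of all genes, and the median difference was 1.16 against 0.37. With the arrays labelled saline, 16 were lower and none higher, against 38.9% and 6.05%, and the median was −0.82 against −0.66. Of those without a call, only Srsf7 was higher at an unadjusted p under 0.05 (limma). Under quantile normalization 12 were higher and 1 lower with the control side, against 14.4% and 16.5% of all genes, and 2 higher and 4 lower with the arrays labelled saline, against 12.9% and 19.0%. Snrpn was lower in PBMC by either choice (−5.68 ± 0.201 and −5.81). In contrast, 12 members, Srsf5 (2.84 ± 0.317), Snrpa and Sf3b1 among them, were called higher in PBMC by the first choice and lower by the second. The share of all genes that changed call in this way was not counted, so this number describes the members only.

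Other genes of the splicing machinery, from a list of 111 of which 87 were on the array and 83 tested, were set beside the members. In the heart 46 (55.4%) were lower and 2 (2.41%) higher, with a median of −1.22, and after quantile normalization 11 (13.3%) lower and 7 (8.43%) higher. Of all genes the shares were 48.0% and 1.36%, and 15.5% and 6.61% after quantile normalization. Cdc5l, a core protein of the Prp19 complex, fell by 3.15 ± 0.102 on the log2 scale, and Bud31, a protein of the activated spliceosome, fell by 3.04 ± 0.178. Those that rose were Taf15, an RNA-binding protein, at 1.45 ± 0.354 (limma adjusted p = 0.000917), and Syncrip, also known as hnRNP Q, at 1.0 ± 0.186. On the DOX side of PBMC 68 (81.9%, against 54.3% of all genes) were lower and none higher, with a median of −1.92. After quantile normalization 20 (24.1%, against 10.0%) were lower and 2 higher, and by the labels 62 (74.7%, against 44.4%) were higher (median 1.64).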

How the data were processed

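Expression was measured on Illumina RatRef-12 BeadChips in 17 left ventricles and 17 PBMC samples after whole-transcriptome amplification. For 22523 probes the authors deposited log2 intensities, centred per array and not corrected for background. Another 34 columns of raw intensities match no sample label and were not used, so no detection p-values entered. How repeat arrays of 7 rats enter the deposited values is not stated. Per array, the median of the 13107 probes not expressed (mean over the arrays of 0.15 or less) was subtracted. Gene symbols came from the platform annotation, 13793 probes having 1 symbol and 8730 none. For 13752 probes the gene ID was in the RefSeq table. The authors' own comparison columns were not used.

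Groups were compared with limma 3.58.1 in R 4.3.3 (lmFit, eBayes, group means) on the 6781 expressed genes, called at an adjusted p of 0.05 and 2-fold; the tissue difference used 4 group means. Tables were made in Python 3.11.15 (pandas 2.3.3, numpy 2.4.6, scipy 1.17.1) and figures with matplotlib 3.10.9. The fits were tested on simulated data. The alternatives were quantile normalization, the deposited centring, other filters, array weights, the mean of all probes, no fold threshold, p-values set against genes not expressed, a replicate block and leaving out arrays. Promoters came from RefSeq (GRCr8). Members and lists were chosen with earlier results of these data known. The named genes are the 4 with the largest change each way per tissue among those called, the brightest of each role and the 3 with the largest tissue difference each way, 18 genes in all. The methods say that heart and PBMC samples of a rat were numbered accordingly, but not whether the deposited replicate numbers are those. Deviations of same-numbered heart and PBMC arrays (1 to 8) from their labelled group means correlated at −0.179 to 0.145. For the DOX arrays this cannot decide on pairing, since DOX 1 stands apart in PBMC and pulls the group mean. The arrays were not treated as pairs. The number of arrays, the signal over background, the scaling and arrays that stand apart bear on the precision.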

Additional observations from a re-analysis of the deposited data

Results flagged for a closer look

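The change in PBMC by the published sides differed from that in the heart, in a test of the difference itself (limma), for 26 of the 43 genes (24 lower and 2 higher, against 37.4% and 23.1% of all genes), and by the labels for 40 (2 lower and 38 higher, against 3.16% and 87.8%). Counted without direction these shares are near those of all genes. By the sides, more of the members were lower (55.8% against 37.4%) and fewer higher (4.65% against 23.1%). Of the genes named, the difference (PBMC minus heart, log2) was −2.24 for Hnrnpa1, −1.97 for Hnrnpa2b1, −3.13 for Srsf5, 3.78 for Snrpn and 0.58 for Srsf3.

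Over the labelled groups of the named genes, an array lay far from the others of its group in 18 of 72 groups examined. In 14 of them it was PBMC DOX 1, at log2 levels of 1.03 for Hnrnpa3, 3.01 for Hnrnpf, 2.29 for Hnrnpm, 1.82 for Hnrnpu, 0.42 for Prpf4, 0.19 for Sf3b1, 1.70 for Sf3b3, 0.71 for Snrpa, 0.33 for Snrpb2, 0.74 for Srsf11 and 2.62 for Srsf5, all below the other arrays labelled DOX, and of 1.78 for Prpf18, 4.60 for Prpf38b and 1.90 for Srsf7, above them. The others were PBMC saline 6 for Prpf18 (2.38) and Srsf3 (0.72), heart saline 2 for Hnrnpm (3.85) and PBMC DOX 3 for Snrpn (0.57).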

How the results depend on the processing

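The counts of members called moved with the scaling, the fold threshold and the null. With quantile normalization they were 12 in the heart (24 in the analysis as reported), 12 in PBMC by side (32), 11 by label (32), 13 for control PBMC against saline heart by side (28) and 6 by label (16). With no fold threshold they were 40 in the heart and 26 for the control levels by label. At an unadjusted p under 0.05 (limma) the heart gave 40 members and 5876 of all 6781 genes. With p-values set against genes not expressed, 16 were called in the heart and 0 in PBMC by either grouping, and against all probes not expressed, a choice made after seeing the data, 18 and 0. Of all 6781 genes, 2691 and 2844 were called in the heart under these nulls, and 0 in PBMC. In PBMC by side the lowest adjusted p over all genes was then 0.0575 and 0.0801, close to the threshold. Of the 18 genes named in full, quantile normalization turned Sf3b3 (0.06) and Srsf5 (0.61) in the heart, Hnrnpa2b1 (0.26), Prpf38b (1.47), Srsf3 (0.51) and Srsf7 (0.85) by side, and Prpf18 (−0.06), Prpf38b (−0.57), Srsf3 (−0.41) and Srsf7 (−0.33) by label. Prpf18 by side (0.08) was −0.32 with array weights, −0.35 without saline 6 and DOX 1, and −0.14 to 0.16 leaving out 1 array at a time. Leaving out each array gave 22 to 26 members in the heart, 31 to 32 by side, 32 to 33 by label, 26 to 31 and 40 to 41 for the tissue difference by side and by label, and 27 to 28 and 16 to 19 for the control levels. Counts of the other alternatives were within 1.5 times.

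A replicate block gave 26 members in the heart and 32 in PBMC by label. With the number as the rat, the replicate block left the 26, 40, 28 and 16 of the comparisons between tissues as they were. On DOX hearts 12 members, and on the DOX side 17, had a median under 0.5, which limits how large a decrease can appear. The array medians over all expressed genes were themselves 0.221 to 0.70 on DOX hearts and 0.293 to 1.45 on the DOX side. Levels near background are thus not particular to the members. The cause of the changes with scaling was not tested.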
